A study of Mus musculus with 4 samples.

Results

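Gene expression in the wild-type (WT) mouse aorta at 6 weeks of age was described from 2 Affymetrix arrays, WT replicate 1 and WT replicate 2, out of 4 arrays in the series. The other 2 arrays hold aortas of Smad4-KO littermates, which lack Smad4 in smooth muscle cells, and they enter no value below. Each WT array took 400 ng of total RNA from a pool of 3 to 5 aortas. The sources used here do not give strain, sex, the segment of the aorta or how the tissue around it was trimmed. Of 45101 probe sets, the 34945 that are not controls and are paired with exactly 1 gene symbol were kept, and they name 18193 genes. Each gene took the value of whichever of its probe sets had the highest log2 signal averaged over both arrays, and all values below are signals on the linear scale unless a log2 scale is named.

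The aorta is an elastic artery. Its inner lining is a single sheet of endothelial cells, its middle coat is built of smooth muscle cells between sheets of elastin and collagen, and its outer coat, the adventitia, holds fibroblasts, small vessels, nerves and resident leukocytes. Outside the adventitia lies perivascular fat, which around the thoracic aorta of the mouse is largely brown fat, a heat-producing tissue rich in mitochondria. In RNA from whole tissue, fewer cells of a type and less RNA per cell cannot be told apart.

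A signal depends on the probes as well as on the transcript, so an order of signals is not an order of transcript amounts. Among 7033 genes above background with several probe sets, the brightest and the dimmest probe set of a gene lay a median of 8.94-fold apart. The values come without detection calls, so a background was set from 76 receptors for odours, pheromones, trace amines and taste. A gene counted as above background when its signal on each array was over the 95th percentile of these receptors on that array, which was 90.7 on WT replicate 1 and 105 on WT replicate 2. Over all genes, 11097 of 18193 (61.0%) were above background. The share was 44.3% for genes with 1 probe set, as 70 of the 76 receptors have, and 85.6% for genes with 3 or more. Among the genes above background, 93.0% had signals within 2-fold on the 2 arrays, and the SD of the log2 difference was 0.55. Below background the SD was 1.53, so the values of dim genes carry little weight. Because a signal also depends on the probes, one below background does not show that the transcript is absent. With only 2 arrays of 1 genotype there is no test, and each gene is given by both of its values.

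The 40 genes of highest signal were led by a smooth muscle actin and by genes of the collagen matrix, which smooth muscle cells and fibroblasts both make. Acta2, the actin of smooth muscle, read 47232 on WT replicate 1 and 57304 on WT replicate 2. It ranked first on both arrays with this probe set, while its next one read 6130 and 6719. The collagen genes Col1a2 (43004 and 54154) and Col3a1 (43528 and 53062) and Sparc, a collagen-binding matricellular protein (42721 and 52234), came close behind. Tmsb4x, which encodes an actin-sequestering thymosin, read 45494 and 51968. Of the 40 genes, 6 belong to the contractile smooth muscle list, 4 to the matricellular list, 5 to the ribosomal proteins, 3 to the actins and 2 to the general adipocyte list, and 13 to no list. Among those outside the lists were Tpt1, a translationally controlled protein (44883 and 45385), the elongation factor Eef1a1 (38241 and 49038), Lgals1, a galectin (44605 and 33342), and Vim, the intermediate filament protein of mesenchymal cells (31844 and 45815). Fhl1, a LIM-domain protein of muscle, read 32979 and 40398. Igfbp7, a secreted binding protein, read 34477 and 37507. The remaining members without a list were Dstn and Hspa8, which act on actin filaments and on protein folding, Fth1 of the iron store ferritin, Cpe, Fstl1 and Cst3. The geometric mean fell from 52025 to 27251 over the 40 genes, a span of 1.91-fold. All 39 pairs of neighbours in this order overlapped in their ranges over the arrays, so the order of neighbours is not resolved. Genes farther apart in the order could be separated: the lower Acta2 value, 47232, exceeded the higher Myl9 value, 41593.

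**Figure D1:**
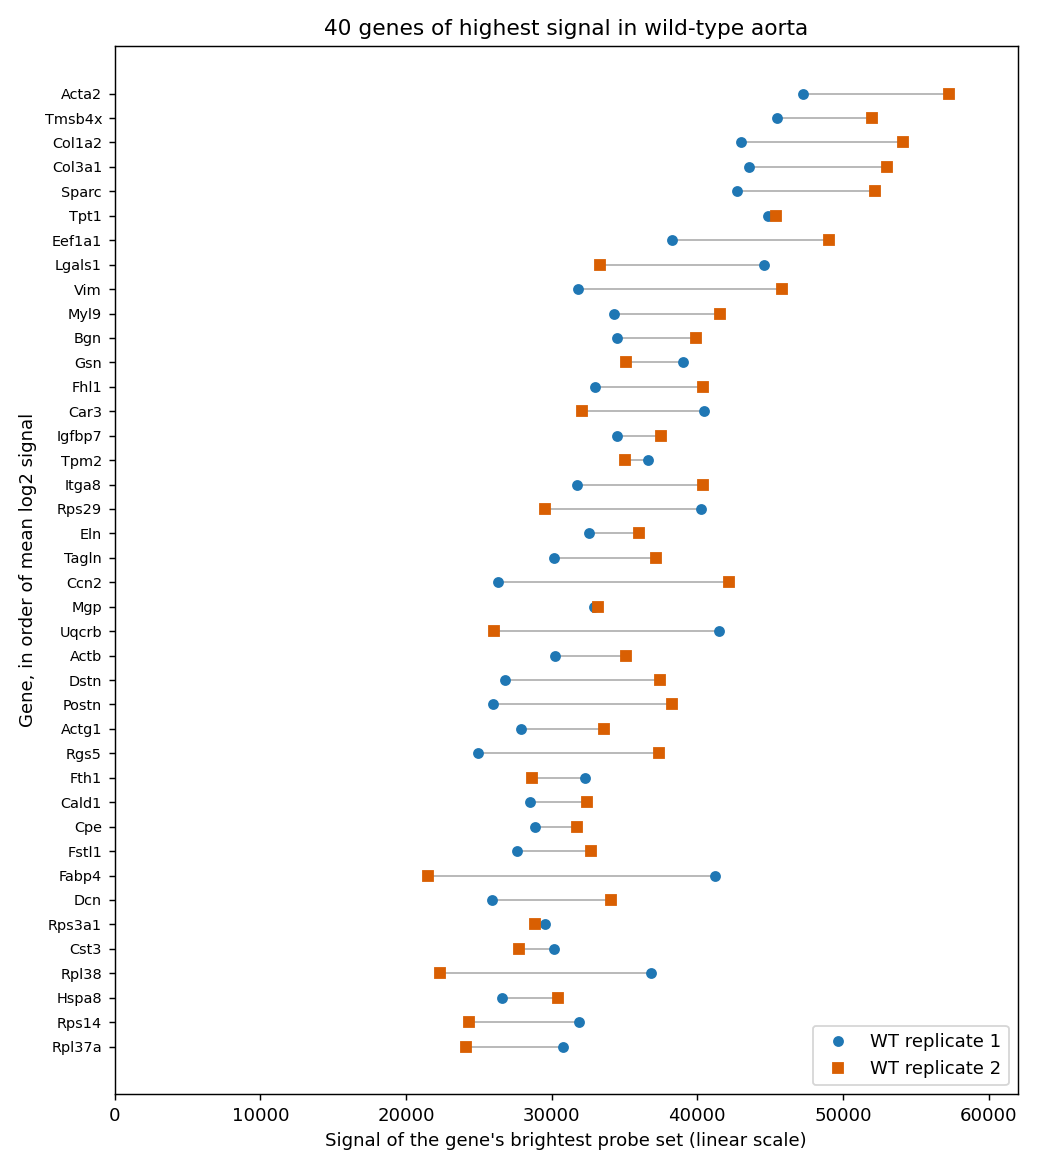
Signals (linear scale) of the 40 genes of highest mean log2 signal on WT replicate 1 (circles) and WT replicate 2 (squares), with a grey line joining the 2 arrays of a gene. Acta2 stands first at 47232 and 57304, and the ranges of every pair of neighbours overlap.

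All 20 measured genes of the contractile smooth muscle list were above background, against 61.0% of all genes, and 15 of them lay in the top 10 percent of signals. The regulatory light chain Myl9 read 34262 and 41593. Tpm2, a tropomyosin of the thin filament, read 36634 and 35020. Itga8, the alpha 8 integrin subunit, read 31719 and 40410. Tagln, an actin-binding protein used as a smooth muscle marker, read 30157 and 37157, and Cald1, the caldesmon gene, 28507 and 32410. These 5 genes and Acta2 were the brightest of the list. Myh11, the myosin heavy chain of differentiated smooth muscle, read 21398 and 32861. Mylk, the kinase that phosphorylates the light chain, read 17161 and 16788, and the actin-binding proteins Synpo2 and Cnn1 gave 11738 and 12409, and 9919 and 10320. Other members had lower signals. Ppp1r14a, an inhibitor of myosin phosphatase, read 6917 and 4254, the coactivator Myocd 1432 and 2755, the potassium channel subunit Kcnmb1 1353 and 1825, and the calcium pump regulator Pln 389 and 399. No member of the list was 2-fold apart between the arrays, and the median log2 difference (WT replicate 1 minus WT replicate 2) was -0.09. With each array centred on its median, that value was 0.16, while the median of all genes moved from 0.01 to 0.26.

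Probe sets of 1 contractile gene gave very different signals. Acta2 had 3 probe sets, at 47232 and 57304, at 6130 and 6719 and at 1109 and 2310. Myh11 had 2, at 21398 and 32861 and at 1303 and 1693. Tpm2 had 4, from 36634 and 35020 down to 365 and 104. The files do not tie probe sets to splice forms, so these values do not show which isoform a probe set reads. The Acta2 probe set of highest signal has an ID ending in _s_at, which Affymetrix gives to probe sets that can match more than 1 transcript.

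Serum response factor binds the CArG box, a motif of 10 bases that is known from promoters of actin and smooth muscle genes. The 250 bases before the start were searched on both strands in the RefSeq promoter table (GRCm38.p6), for CC, 6 bases of A or T, and GG, which reads as the same motif on either strand. An exact box stood in 1.47% of all 32851 promoters, in 3 of 32 promoters of the 40 brightest genes (9.38%) and in 1 of 18 promoters of the contractile list (5.56%). With 1 mismatch allowed among the 6 middle bases, a search added after the data were seen, the shares were 8.59%, 21.9% and 22.2%. The adventitial fibroblast list then gave 22.2% too and the endothelial list 16.7%, so this looser share was not higher in the contractile list alone. The table held promoters of 26 of the 40 brightest genes and of 16 of the 20 contractile genes. The 3 promoters with an exact box and that of Acta2 are shown to place the motif, with boxes in capitals, 120 bases each and the strand of the gene.
Acta2, chr19:34255374-34255493, minus strand: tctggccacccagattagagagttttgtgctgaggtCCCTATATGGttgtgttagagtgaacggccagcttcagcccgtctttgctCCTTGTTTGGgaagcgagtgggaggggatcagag
Actg1, chr11:120348496-120348615, minus strand: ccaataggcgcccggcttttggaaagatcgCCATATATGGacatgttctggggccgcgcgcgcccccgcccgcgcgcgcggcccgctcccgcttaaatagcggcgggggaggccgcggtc
Fhl1, chrX:56779561-56779680, plus strand: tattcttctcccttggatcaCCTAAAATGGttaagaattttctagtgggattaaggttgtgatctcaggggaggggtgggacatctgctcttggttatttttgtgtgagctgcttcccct
Myl9, chr2:156775283-156775402, plus strand: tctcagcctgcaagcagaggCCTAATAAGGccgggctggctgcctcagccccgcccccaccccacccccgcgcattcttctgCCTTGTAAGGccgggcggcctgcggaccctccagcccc
The first Myl9 box begins 161 bases before the start, the Fhl1 box 102 and the Actg1 box 90. The Acta2 boxes, at 84 and 34 bases before the start, and the second Myl9 box, at 99 bases, each carry 1 mismatch. A match is a stretch of letters and shows no binding.

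Among the actins, 5 of 6 genes were above background (83.3%, against 61.0% of all genes). The cytoplasmic actins Actb and Actg1 read 30224 and 35117, and 27912 and 33575. Actg2, the actin of visceral smooth muscle, read 4087 and 4363. Actc1, the cardiac actin, read 452 and 463. Acta1, the skeletal actin, read 87.4 and 64.7, below background on both arrays. Actins are close in sequence, so probes of 1 gene can read another, and how far this shapes the dimmer signals was not tested.

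Of 12 conventional myosin heavy chains, 6 were above background. The smooth muscle chain Myh11 and the nonmuscle chains Myh10 (14723 and 16689) and Myh9 (11964 and 6923) were far above it. The striated chains Myh7, Myh1 and Myh6 lay near it, at 204 and 208, 382 and 107, and 153 and 240. The other striated chains, Myh2, Myh3, Myh4, Myh7b and Myh8, were below it on both arrays. Myh14, a nonmuscle chain, read 142 and 41.6, so its arrays lay on both sides of the bound.

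All 4 tropomyosins were above background, against 61.0% of all genes. Tpm2 read 36634 and 35020, Tpm1 17393 and 22210, Tpm4 6614 and 8563 and Tpm3 5800 and 7011. Of the troponins, the calcium switch of striated muscle, 4 of 8 were above background and none exceeded 269, the Tnnt2 signal on WT replicate 2. In the calponin and transgelin family, Tagln (30157 and 37157), Cnn3 (21889 and 26672), Cnn1 (9919 and 10320), Cnn2 (7999 and 7005) and Tagln2 (4807 and 2527) were above background. Tagln3, which is known from nerve cells, read 69.2 and 107, above the bound on 1 array only.

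**Figure D2:**
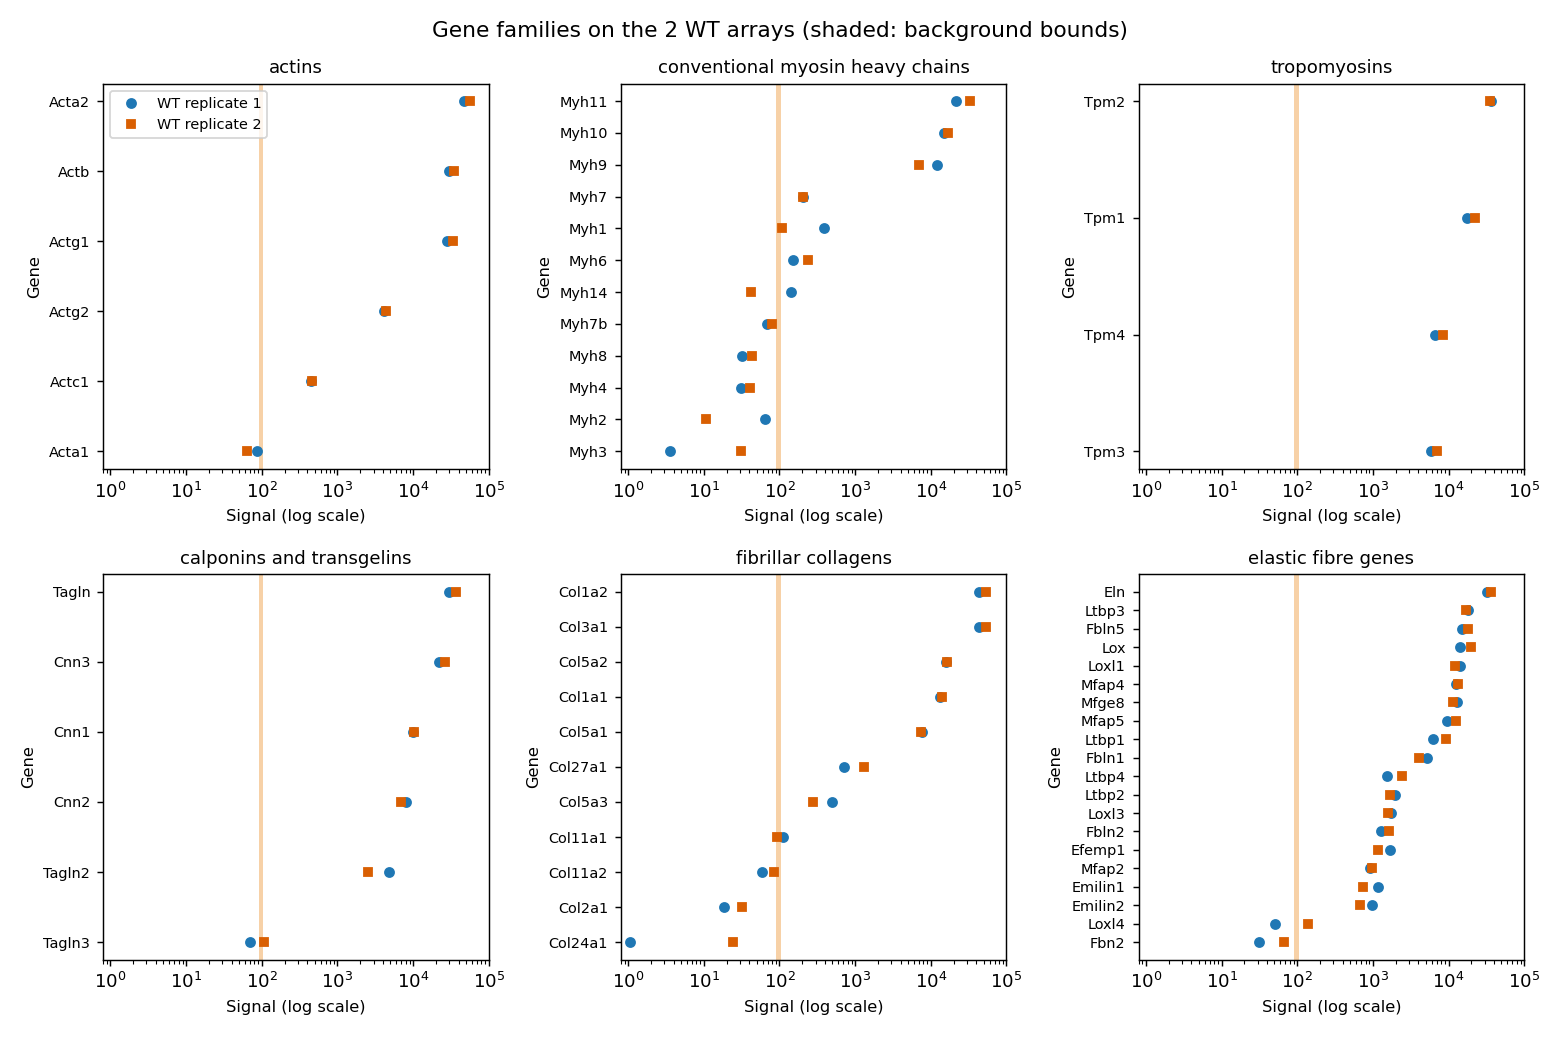
Signals (log scale) of 6 gene families on WT replicate 1 (circles) and WT replicate 2 (squares), with the background bounds of the arrays shaded. Smooth muscle and cytoplasmic members stand at the right of the actin and myosin panels, and Acta1, Myh2, Myh3 and Myh4 lie below the bounds.

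Elastic fibre genes were bright. Of 20 measured, 18 were above background and 10 lay in the top 10 percent. Eln, the elastin gene, read 32593 and 35973 with its brighter probe set and 2850 and 3687 with the other. Fbln5, which guides elastic fibre assembly, read 15201 and 18314. The crosslinking enzymes Lox and Loxl1 read 13988 and 19587, and 14324 and 12359. Ltbp3, which binds latent TGF-beta, gave 17908 and 17175, the microfibril proteins Mfap4 and Mfap5 gave 12459 and 13260, and 9428 and 12508, and the milk fat globule protein Mfge8, found in the arterial wall, 12876 and 11548. Fbn2, a fibrillin of development, was below background at 31.0 and 66.0, and Loxl4 read 51.4 and 138. With signals below the bound raised to it, no member was 2-fold apart between the arrays. In raw signal only Loxl4 (2.69-fold) and Fbn2 (2.13-fold) were.

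The fibrillar collagens fell into bright and dim members. The chains of type I, III and V collagen were far above background: Col1a2 and Col3a1 as given, Col5a2 at 15805 and 16252, Col1a1 at 13137 and 14201 and Col5a1 at 7743 and 7416. Col27a1 (705 and 1309) and Col5a3 (491 and 275) were above background too. The cartilage chains Col2a1 (18.7 and 32.1) and Col11a2 (58.7 and 85.8) and Col24a1 (1.07 and 24.7) were below it, and Col11a1 read 113 and 92.5.

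Of 31 other collagens, 19 (61.3%, near the 61.0% of all genes) were above background. Col9a1, Col9a2, Col10a1 and Col17a1 were among those below it. The basement membrane chains Col4a1 (19559 and 20330), Col4a5 (11018 and 15272) and Col4a2 (7735 and 8805) were among the brightest, with Col18a1 (13918 and 15583). The microfibril chains of type VI collagen read 16132 and 19470 (Col6a3), 14000 and 11286 (Col6a2) and 12054 and 11767 (Col6a1). Col14a1, a fibril-associated collagen of the adventitia, read 8299 and 8832. Of 10 laminin chains, 8 were above background, with Lama4 at 2732 and 4328, Lamb2 at 2916 and 3638 and Lama2 at 2088 and 2140. Lama1 and Lamb3 were below it. Of 14 small leucine-rich proteoglycans, which bind collagen fibrils, 12 (85.7%) were above background. They were led by Bgn (34475 and 39932), Dcn (25898 and 34082), Ogn (19717 and 23268) and Lum (17283 and 20167). Optc, known from the eye, read 2079 and 2638, while Kera and Chad were below background.

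Matricellular proteins, which act on cells from within the matrix, were above background in 16 of 18 cases (88.9%, against 61.0% of all genes). Ccn2, a target of TGF-beta and of stretch, read 26312 and 42158. Mgp, an inhibitor of calcification, read 32900 and 33197, and Postn, the periostin gene, 25992 and 38236. Fn1, the fibronectin gene, read 22653 and 29837. Among members above background on at least 1 array, only Ccn1 and Thbs1 were 2-fold apart. Both were higher on WT replicate 2, at 4836 and 10786 and at 304 and 689.

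**Figure D3:**
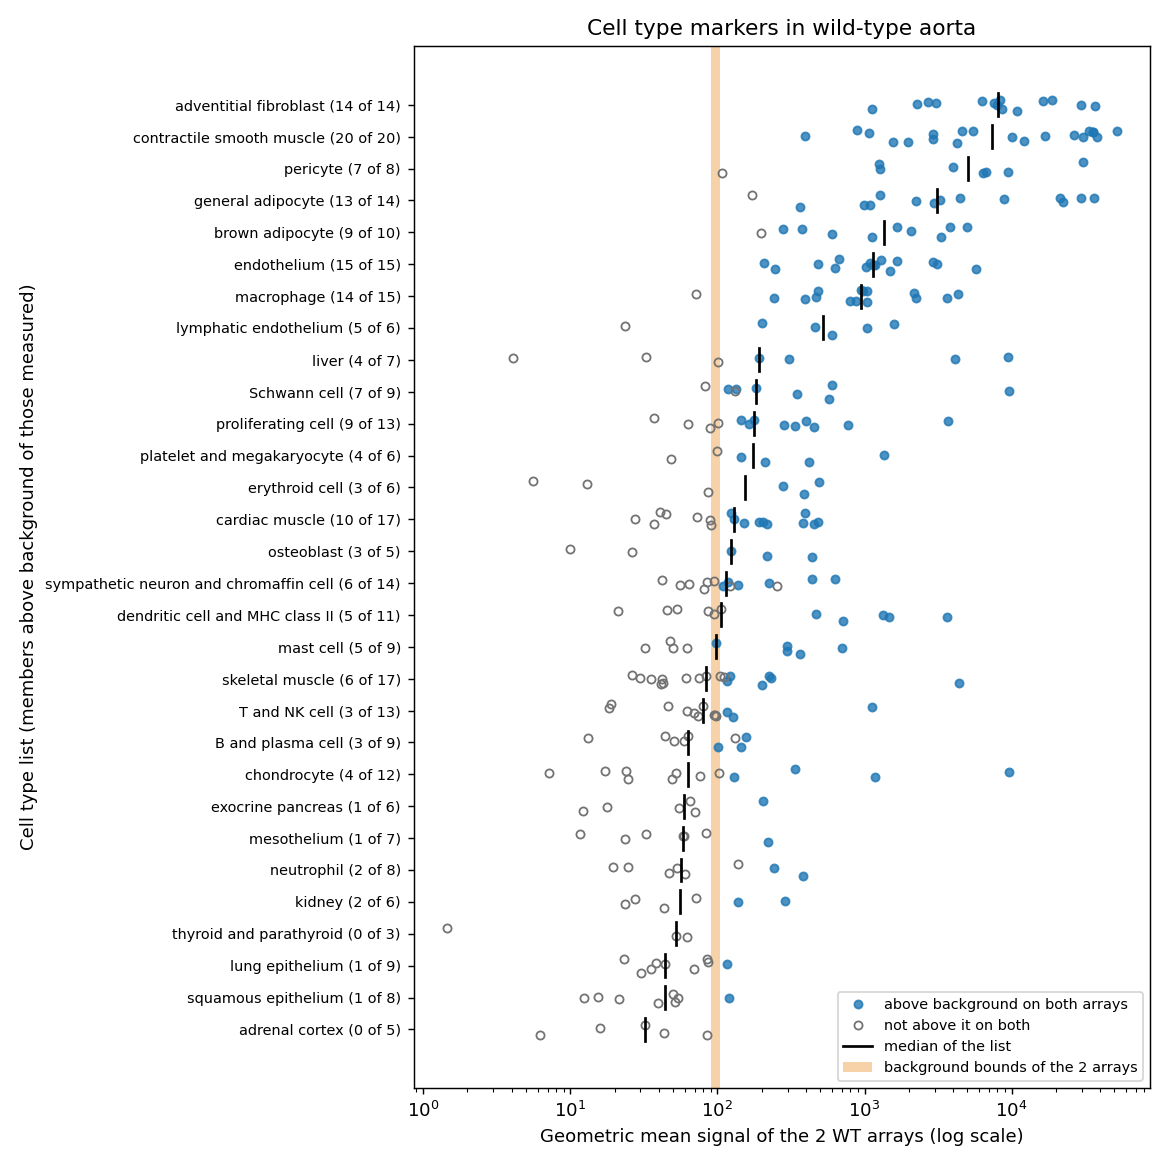
Geometric mean signal of the 2 WT arrays (log scale) for each measured member of 30 cell type lists, filled where the gene was above background on both arrays, with the median of each list as a bar and the background bounds shaded. Adventitial fibroblast and contractile smooth muscle genes stand at the right, and epithelial and adrenal genes lie at the bounds or below them.

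All 14 measured adventitial fibroblast markers were above background, against 61.0% of all genes, and 12 of them lay in the top 10 percent. Gsn, the gelsolin gene, read 39027 and 35095. Dpt, a dermatopontin that binds Dcn, read 20438 and 13195. Serpinf1 read 8860 and 7744, Pi16, a marker of adventitial progenitor-like fibroblasts, 9637 and 6583, and the iron receptor Scara5 7059 and 8194. Cd34, shared by fibroblasts and endothelium, read 6364 and 6209, and Pdgfra, the fibroblast receptor for PDGF, 2769 and 3411. Thy1, also a T cell gene, read 1833 and 695 and was the only member 2-fold apart. Many of these genes, Dcn and Gsn among them, are also used by smooth muscle, so the list does not count fibroblasts.

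All 15 endothelial markers were above background, against 61.0% of all genes, and 3 lay in the top 10 percent. Ptprb, the phosphatase of endothelial junctions, read 5968 and 5501. Vwf, the von Willebrand factor gene, read 3846 and 2488 and Pecam1 2296 and 3699. The angiopoietin receptor Tek read 1531 and 1469, the nitric oxide synthase Nos3 1254 and 948 and the junction protein Cdh5 853 and 529. Kdr, the VEGF receptor, read 545 and 424. Cldn5 (1562 and 671) and the transcription factor Erg (1720 and 796) were 2-fold apart, both higher on WT replicate 1. The median log2 difference of the list was 0.40.

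Of 8 pericyte markers, 7 were above background (87.5%, against 61.0% of all genes). Rgs5, a regulator of G protein signalling, read 24935 and 37356, and Abcc9, a potassium channel subunit, 7660 and 11712. Pdgfrb read 7308 and 6053 and Notch3 1362 and 1154, and both are also genes of arterial smooth muscle. Whether smooth muscle also gives the signals of the other members was not tested, so the list does not count pericytes. Higd1b, which marks pericytes of small vessels, read 144 and 79.3, above the bound on 1 array only. Among lymphatic endothelial markers, Pdpn (1847 and 1343), Lyve1 (1040 and 1023), Mmrn1 (574 and 628), Reln (359 and 588) and Flt4 (281 and 145) were above background. The defining transcription factor Prox1 read 17.5 and 32.1, below it on both arrays. Lyve1 also marks macrophages of the artery wall.

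Macrophage genes were above background in 14 of 15 cases (93.3%, against 61.0% of all genes). Csf1r, the receptor for the growth factor of macrophages, read 6029 and 3087. The lysozyme Lyz2 read 4326 and 3047, the protease Ctss 2455 and 2013 and the transglutaminase F13a1 2464 and 1914. The resident markers Mrc1, Cd163 and Folr2 read 937 and 1011, 1077 and 822, and 472 and 469. The complement genes C1qa, C1qb and C1qc read 1365 and 803, 1148 and 561, and 1190 and 640. Cx3cr1, a chemokine receptor, was below background at 62.3 and 82.1. The median log2 difference between the arrays was 0.39 for this list.

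Of 11 dendritic cell and MHC class II genes, 5 were above background (45.5%, against 61.0% of all genes), with H2-Aa at 4860 and 2694 and Cd74 at 2092 and 1037. Zbtb46, a transcription factor of dendritic cells, read 434 and 499, while Itgax, Flt3, Xcr1 and Ccr7 were not above background on both arrays. Among 9 mast cell genes, 5 (55.6%, near the 61.0% of all genes) were above background. They were the proteases Cpa3 (771 and 640), Cma1 (492 and 266) and Mcpt4 (350 and 249), the receptor Kit (237 and 369) and, barely, Tpsb2 (90.8 and 107). Hdc (80.5 and 48.1), Tpsab1 (48.8 and 46.3) and the IgE receptor genes Ms4a2 and Fcer1a were below background. Only S100a8 (762 and 190) and S100a9 (487 and 119) of 8 neutrophil genes were above background, and both were over 2-fold higher on WT replicate 1. Of 13 T and NK cell genes, 3 were above background, Thy1, Cd8a (129 and 126) and Il7r (99.3 and 137). Cd3e read 24.7 and 13.6, and Cd4 16.4 and 21.6. Of 9 B and plasma cell genes, 3 were above it, none over 177, the Mzb1 signal on WT replicate 2. Both of these lymphocyte shares lie below the 61.0% of all genes.

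Of 6 erythroid genes 3, and of 6 platelet genes 4 (66.7%), were above background, near the 61.0% share of all genes. Platelet genes Pf4 (1676 and 1100) and Ppbp (513 and 342) and the erythroid genes Alas2 (771 and 312), Hbb-b2 (337 and 452) and Hba-a2 (214 and 361) were above background. Pf4 is also expressed by some resident macrophages. The erythroid genes Slc4a1, Epb42 and Hba-a1 (26.7 and 6.41) and the platelet genes Treml1 and Gp9 were not above background on both arrays.

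Fat genes were bright and differed between the pools. Of 14 general adipocyte genes, 13 were above background, and of 10 brown adipocyte genes, 9. Car3, a carbonic anhydrase abundant in fat, read 40472 on WT replicate 1 and 32059 on WT replicate 2. The fatty acid carrier Fabp4 read 41249 and 21528, the desaturase Scd1 40372 and 12301, the lipase Lpl 26493 and 16961 and the hormone Adipoq 13468 and 5891. Ucp1, the uncoupling protein that defines brown fat, read 9417 and 1170. Cidea, a lipid droplet protein, read 10952 and 2233, and Cox8b, a cytochrome oxidase subunit of brown fat and striated muscle, 12117 and 1193. Elovl3 (424 and 92.6) and Lep, the leptin gene (292 and 99.7), were above the bound on WT replicate 1 only. Ucp1 was above background in both pools, and WT replicate 1 read higher for 9 of 10 brown and 14 of 14 general adipocyte genes. Ppargc1a, a coactivator of mitochondrial genes, was the exception at 370 and 383. Over all genes, the median log2 difference (WT replicate 1 minus WT replicate 2) was 0.01.

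Of 17 skeletal muscle genes, 6 (35.3%, against 61.0% of all genes) were above background. Casq1, a calcium store protein of fast skeletal muscle, was the exception by size, at 4843 and 4026. Myl1 (446 and 111) and Myh1 (382 and 107) were over 2-fold higher on WT replicate 1. Mylpf, Tnnt3, Atp2a1, Tnni2 and Acta1 were not above background on both arrays. Of 17 cardiac genes, 10 (58.8%, near the 61.0% of all genes) were above background, the highest being the calcium release channel Ryr2 at 541 and 426, and Nppa, Myl2, Myl3 and Myl7 were not. Pln is shared with the smooth muscle list.

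Nerve markers were mostly low in signal, though most Schwann cell genes were above background. Of 9 Schwann cell genes, 7 were above it (77.8%, against 61.0% of all genes), with the list's median at percentile 45.4 of all signals. Pmp22, which fibroblasts and smooth muscle also express, read 9820 and 9502, Cnp 720 and 501, Mbp 554 and 587 and S100b 440 and 275. Mal read 156 and 213, the defining factor Sox10 120 and 150 and Egr2 101 and 140. Cdh19 and Ncmap were not above background on both arrays. Of 14 genes of sympathetic neurons and chromaffin cells, 6 were above background (42.9%, against 61.0% of all genes). Uchl1 read 661 and 604, Stmn2 472 and 411, Dbh, the enzyme that makes noradrenaline, 154 and 124, and Th 111 and 126. Npy read 642 and 102, at least 6.13-fold higher on WT replicate 1. Snap25, Chga, Chgb, Phox2a and Elavl4 were not above background on both arrays.

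Genes of organs near the aorta and of other epithelia were mostly below background, while 61.0% of all genes were above it. Of the lung epithelial list 1 of 9 was above background, of the squamous list 1 of 8, of the mesothelial list 1 of 7 and of the adrenal cortex and thyroid and parathyroid lists 0 of 5 and 0 of 3. The surfactant gene Sftpc read 72.0 and 17.5, Krt14 23.4 and 19.8, and Cyp11b1 46.3 and 41.1. Of 6 kidney genes 2 were above background, the highest being Kap at 397 and 211, and Cela1 was the 1 of 6 pancreas genes, at 226 and 184. Among liver genes, Cyp2e1 (10260 and 8806) and Hp (4861 and 3547), both also expressed in fat, were bright, while Ahsg, Apoa1 and Fgb were not above background on both arrays and Alb read 301 and 311.

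Transcription factors of vessel cells were above background in 25 of 29 cases (86.2%, against 61.0% of all genes). Many of them have several probe sets, such as Mef2a and Prrx1 with 6 each. The share was 71.1% for all genes with 2 probe sets and 85.6% for those with 3 or more. Mef2a read 4312 and 5845, Prrx1, a factor of mesenchyme, 3057 and 3935, Tbx18, a factor of mural cells, 2664 and 4323 and Klf4 3104 and 2742. Srf, the partner of Myocd, read 1816 and 1500, Gata6 965 and 1377 and the Notch targets Heyl and Hey2 1137 and 965, and 840 and 1033. The endothelial factors Sox17 and Sox18 read 1907 and 1663, and 560 and 263. Of factors known from the heart, Isl1 (436 and 195), Tbx20 (129 and 145) and Gata4 (94.4 and 117) were above background, and Nkx2-5, Hand1, Hand2 and Gata5 were not above it on both arrays.

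Hox genes set position along the body axis, and 16 of 33 measured were above background, below the 61.0% of all genes. Hoxa5 read 1191 and 717, Hoxa9 912 and 724, Hoxc8 1115 and 527, Hoxb3 947 and 474 and Hoxa3 646 and 564. Hoxc10 (162 and 238) and Hoxa10 (234 and 290) had the highest number among those above background. The members numbered 11 to 13, such as Hoxa13 (34.5 and 31.2) and Hoxd13 (16.3 and 39.5), were not.

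Of 13 genes of proliferating cells, 9 (69.2%) were above background, a share near the 61.0% of all genes. The replication clamp Pcna read 3673 and 3660, Mcm2 755 and 779, Mki67 499 and 411, Top2a 269 and 296 and Cdk1 201 and 135. Aurkb, Bub1, Ccnb2 and Tyms were not above background on both arrays.

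Genes of translation and of mitochondrial respiration were bright in both pools. Of 49 ribosomal protein genes, 46 (93.9%, against 61.0% of all genes) were above background and 29 lay in the top 1 percent, with Rps29 at 40248 and 29519. Rps16 was below background, at 1.83 and 10.5 with 1 probe set. Of 81 genes of oxidative phosphorylation, 78 (96.3%) were above background. Uqcrb of complex III read 41508 and 26047, Cox6a1 32239 and 20082 and Cox7a2 32072 and 12327.

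Most fat and mitochondrial genes differed between the WT pools by at least 2-fold, though most genes that differed lay outside these lists. Of 12195 genes above background on at least 1 array, 617 (5.06%) were at least 2-fold higher on WT replicate 1 and 235 (1.93%) on WT replicate 2, with the dimmer array raised to its bound. Without the fat and mitochondrial lists, 529 and 235 genes remained. In the oxidative phosphorylation list, 59 of the 78 such members were at least 2-fold higher on WT replicate 1, by 2.03- to 11.8-fold, and 0 on WT replicate 2. The same counts were 8 of 10 and 0 for brown adipocyte genes, 11 of 14 and 0 for general adipocyte genes, and 0 of 20 and 0 for contractile smooth muscle genes. The median log2 difference was 1.36 in the oxidative phosphorylation list, 2.08 in the brown and 1.20 in the general adipocyte list, and 0.01 over all genes. Ribosomal proteins had a median of 0.45, with 5 of 46 members at least 2-fold higher on WT replicate 1. These 4 directions held under quantile normalization and median centring, which moved the median of all genes to 0.12 and 0.26.

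**Figure D4:**
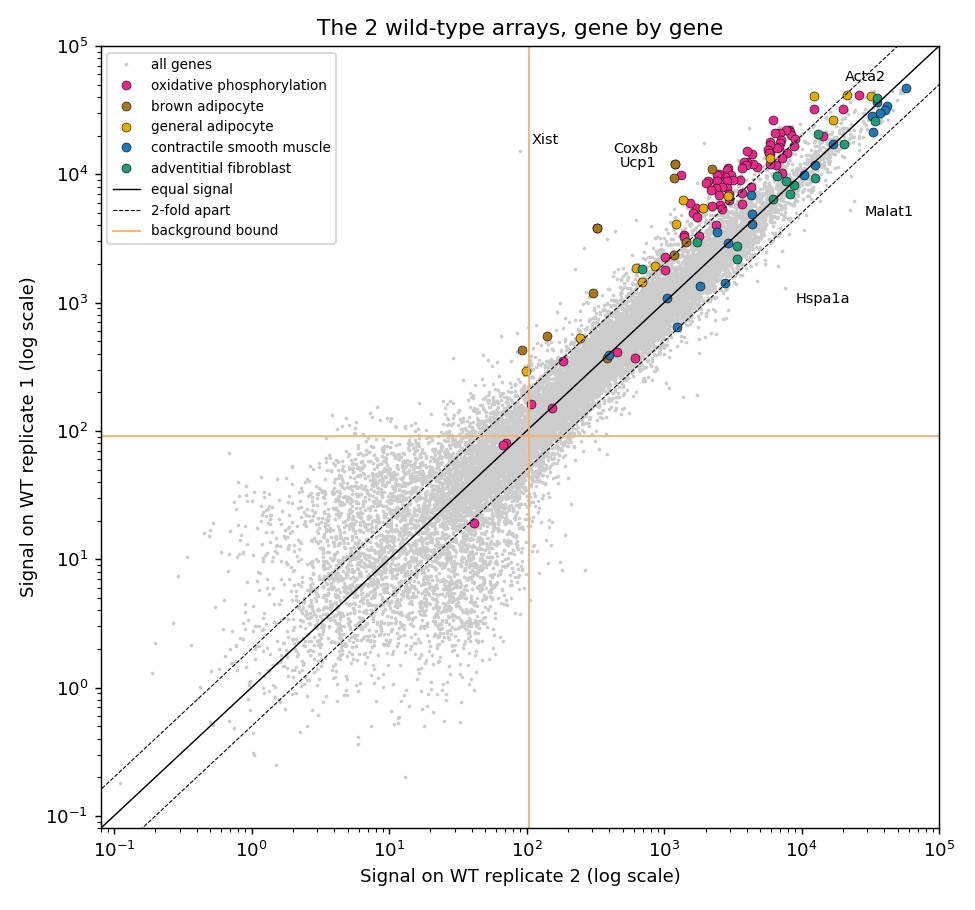
Signal on WT replicate 1 against WT replicate 2 (both log scale) for 18193 genes, with 5 gene lists coloured, dashed lines at 2-fold and the background bounds of the arrays. Most oxidative phosphorylation and fat genes lie beyond the dashed line on the side of WT replicate 1, and contractile genes follow the line of equal signal.

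Several of the largest differences were in genes of fat and mitochondria. Higher on WT replicate 1 were Cox7a1, a subunit of cytochrome oxidase (3836 and 325, 11.8-fold), Cox8b (10.2-fold), Ucp1 (8.05-fold), the aldehyde dehydrogenase Aldh1a7 (2659 and 261), the mitochondrial protein Chchd10 (17615 and 1945) and Adig, an adipocyte protein (3622 and 437). Apoc1 (3148 and 385), Acaa1b (1830 and 226), the ATP synthase subunit Atp5md (9942 and 1315), the fatty acid elongase Elovl6 (4386 and 629) and Npy completed the group with Xist. Higher on WT replicate 2 were Zdhhc23 (190 and 1737), Mid1 (184 and 1377), the heat shock proteins Hspa1a (1293 and 7591) and Hspa1b (5220 and 22293), the prostaglandin synthase Ptgs2 (214 and 1087) and the nuclear RNA Malat1 (6148 and 23909). Net1, Npy1r, Slfn4, Actn2, Cep290 and Malt1 were 3.80- to 4.43-fold higher there, Slfn4 with WT replicate 1 below the bound. The Npy1r difference was -0.47 on the log2 scale with the mean of its probe sets, in place of -2.12.

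Other measures also separated the pools. Xist, the RNA of the inactive X chromosome, was at least 145-fold higher on WT replicate 1, while the Y-linked genes Eif2s3y (866 and 2329), Uty (202 and 621) and Kdm5d (269 and 537) were lower there but above background on both arrays. The ratio of 3' to 5' signal was higher on WT replicate 1 for all 6 controls examined, at 11.4 and 4.19 for beta-actin, 3.27 and 1.44 for Gapdh and 14.4 and 3.64 for the Thr spike. Among 4809 genes with at least 2 probe sets above background, the dimmest probe set was lower relative to the brightest on WT replicate 1 in 68.0%, with median log2 differences of -0.24 and -0.01. In the oxidative phosphorylation list both probe sets were higher on WT replicate 1 for 37 of 44 such genes, and their medians were 1.41 for the brightest and 1.31 for the dimmest. Such genes of the fat lists differed less with the dimmest probe set: the medians were 1.22 and 0.46 in the general and 0.99 and 0.14 in the brown adipocyte list. Both probe sets were higher on WT replicate 1 for 4 of 7 and 2 of 3 genes. The brown genes compared were Dio2, Fabp3 and Ppargc1a. Ucp1, Cidea, Cox8b and Cox7a1 have 1 probe set each and could not enter, so these medians do not describe them. Fabp4 turned from 41249 and 21528 with its brightest probe set to 595 and 1103 with its dimmest. The part of sex, of the 3' to 5' ratio or of the amount of fat in these differences was not tested.

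**Figure D5:**
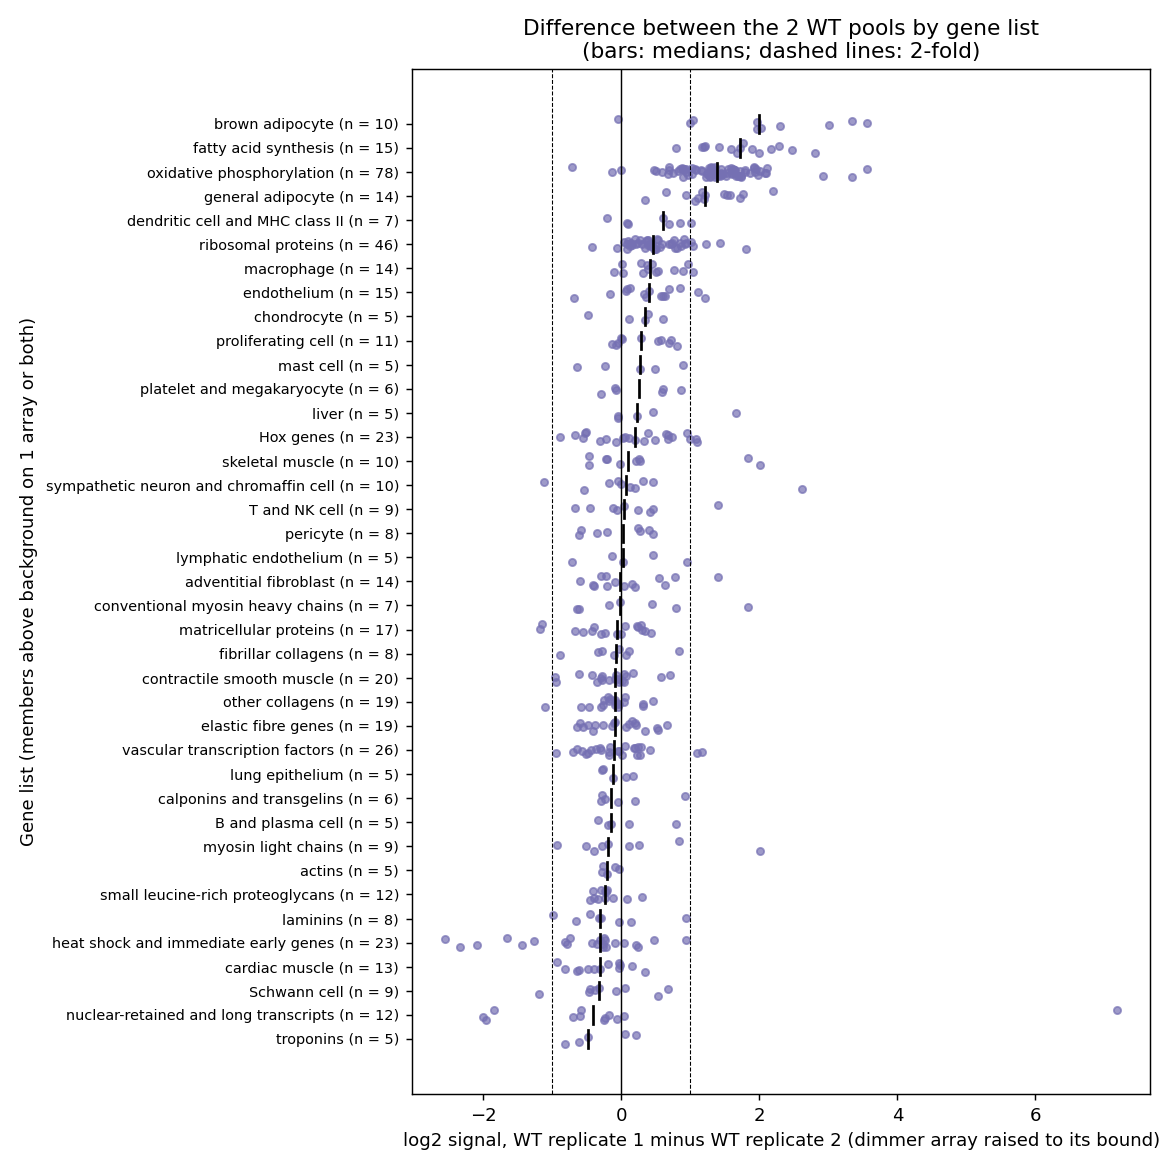
Log2 signal on WT replicate 1 minus WT replicate 2 for members above background on at least 1 array, in gene lists with 5 or more such members, with the dimmer array raised to its bound, bars at the medians and dashed lines at 2-fold. The brown adipocyte, fatty acid synthesis, oxidative phosphorylation and general adipocyte lists lie farthest to the right, the macrophage and endothelial medians lie at 0.42 and 0.40, and the contractile and adventitial fibroblast medians lie at -0.09 and -0.03.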

How the data were processed

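The authors deposited probe set signal intensity on a linear scale, 1 value per probe set and array. The tools behind these values were RMA and Affymetrix Expression Console, per the submitters' processing notes, which give no version. The values are not on the log2 scale that RMA gives, and the mean after trimming 2% of values at each end was 500 on both WT arrays, as in MAS5 scaling. The sources used here give no genome build. Median signals were 111 (WT replicate 1) and 132 (WT replicate 2), and the number of arrays limits the precision.

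Signals were taken to log2 with no further scaling. Of the other probe sets outside the 64 controls, 932 carried several symbols and 9160 none, and they were left out. By gene identifier, 18032 of 18193 genes matched RefSeq (GRCm38.p6). Named were the 40 brightest genes, up to 8 members of each list above background with defining markers below it, all members of the small families, and the 12 largest differences between the WT arrays in each direction with predicted genes passed over. The members, the 49 lists and the rules were chosen with earlier results of these data known, and 3 further lists were added after the values were seen. A fold written "at least" has the dimmer array raised to its bound. The label of the arrays, biological replicates, covers pools and not single mice. The 2-fold rule and the background bound were tried on simulated arrays, with noise set from these same 2 arrays. That trial held no difference in scale or in 3' to 5' signal between arrays, so it does not cover such differences. Alternatives changed the probe sets used, the scaling, the background and the arrays. Computation used numpy 2.4.6 and pandas 2.3.3 in Python 3.11.15, and matplotlib 3.10.9 drew the plots.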

Additional observations from a re-analysis of the deposited data

How the results depend on the processing

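The count of genes above background, 11097, stayed within 1.5 times of itself under 10 alternatives, from 9296 (a fixed signal of 200) to 11839 (without WT replicate 2). Of the 40 brightest genes, 40 remained with quantile normalization, 32 without probe sets ending in _s_at or _x_at, 35 and 32 on each array alone (without WT replicate 1 and without WT replicate 2), but 21 with probe sets averaged per gene. Acta2, the first of the 40, was among the genes lost without _s_at and _x_at probe sets. Its brightest probe set then read 6130 and 6719. The share of genes within 2-fold, 92.96%, was 92.2% with the mean of probe sets, 91.91% with quantile normalization and 89.59% with median centring. The 617 genes higher on WT replicate 1 became 1156 with median centring. The 235 higher on WT replicate 2 became 95 with median centring, 447 with the mean of probe sets and 154 with a fixed signal of 200. Without the fat and mitochondrial lists, an alternative added after the data were seen, 529 and 235 genes were 2-fold apart. Of 490 counts of list members over the alternatives, 49 moved by over 1.5 times. Among them, at a fixed signal of 200, cardiac genes fell to 5, skeletal muscle genes to 2 and neuronal genes to 2, and on WT replicate 1 alone T and NK cell genes came to 8. Of the 24 largest differences between the arrays, none turned, and Npy1r alone fell under 2-fold, with probe sets averaged. No paired analysis was possible because only WT arrays were used and no groups were compared.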

Other observations

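A few bright genes are given here that were chosen after their values were seen. Cytl1, a cytokine-like protein of cartilage, read 11866 and 7801. Of the other chondrocyte genes, Comp (1322 and 1044), Acan (384 and 295) and Hapln1 (110 and 153) were above background, and Col2a1, Sox9, Matn1 and Chad were below it on both arrays. Casq1 read 4843 and 4026 while 11 of 17 skeletal muscle genes were not above background on both. Sost, a secreted Wnt inhibitor known from bone, read 12384 and 15609, in the top 1 percent of signals. Of 5 osteoblast genes, 3 (60.0%, near the 61.0% of all genes) were above background: Phex (341 and 560), Alpl (232 and 204) and Sp7 (133 and 114). Ibsp and Dmp1 were below it. Dsp, a desmosome protein best known from epithelium and heart, read 9944 and 10481 while 7 of 8 squamous epithelial genes were not above background on both arrays. The 3 TGF-beta genes read 3776 and 4284 (Tgfb3), 1485 and 4749 (Tgfb2) and 333 and 270 (Tgfb1), and only Tgfb2 was 2-fold apart, higher on WT replicate 2. Oxt, the oxytocin gene, was the only gene of the alternative background list above background on both arrays, at 389 and 411.

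The added list of fatty acid synthesis genes, picked after the difference between the pools was seen, had 15 of 15 members higher on WT replicate 1 and 14 at least 2-fold. It holds Elovl6, named above. Of all genes above background on at least 1 array, 5.06% were at least 2-fold higher on WT replicate 1 and 1.93% on WT replicate 2. The fatty acid synthase Fasn read 22823 and 4113, Thrsp 22824 and 6745 and the citrate lyase Acly 15999 and 5314. The added list of heat shock and immediate early genes was also picked after the values were seen. It holds Hspa1a, Hspa1b and Ptgs2, named above as largest differences. Of its 23 members, 18 were higher on WT replicate 2, 6 of them at least 2-fold. Dnajb1 read 1992 and 5433 and Atf3 745 and 1789, but Fos 3004 and 2537. The median log2 difference of this list was -0.32, against 0.01 over all genes. With median centring these medians were -0.07 and 0.26, and with quantile normalization -0.44 and 0.12. The added list of nuclear-retained and long transcripts, also picked after the values were seen, holds Malat1, Cep290 and Xist, named above. It had 10 of 12 members higher on WT replicate 2, 3 of them at least 2-fold, with Ankrd12 at 744 and 2687 and Neat1 at 8010 and 12093. Because these 3 lists were picked from these same values, their counts are no independent evidence for a theme. Of the 9160 probe sets without a gene symbol, 2961 (32.3%) were above the background bounds on both arrays, against 54.5% of the probe sets with 1 symbol.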
